A study of Homo sapiens with 8 samples.

Results

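The S100 proteins studied here are 10 small calcium-binding proteins, *S100A2*, *S100A4*, *S100A6*, *S100A7*, *S100A8*, *S100A9*, *S100A10*, *S100A11*, *S100A14* and *S100P*, taken as a named list that was drawn up with earlier results of these data known. Of these, 9 were measured among 13842 genes in 8 RNA-seq libraries, and *S100A7* was not analysed here. MCF10A, a line of non-tumorigenic breast epithelial cells, and DCIS.COM, a line that models ductal carcinoma in situ, were each transduced with pLOC-*MALINC1*, a lentiviral vector that expresses the long non-coding RNA *MALINC1*, or with pLOC-empty, the same vector without it. All 4 groups were stable populations selected with blasticidin, and each had 2 libraries made from total RNA of subconfluent plates. The medium named for MCF10A held horse serum, epidermal growth factor, hydrocortisone, insulin and cholera toxin, whereas horse serum is the only supplement named for DCIS.COM. Line and medium therefore cannot be told apart in a comparison of the lines. Nothing in the labels says that the 2 libraries of a group came from separate transductions or cultures, so that the p-values measure only the spread between these libraries.

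S100 proteins are small proteins with paired EF-hand calcium-binding sites. Most form dimers that expose a binding surface for a partner when calcium rises, and they act inside the cell on annexins, the cytoskeleton and transcription factors, or outside it as ligands of receptors such as RAGE (gene *AGER*) and *TLR4*. Most S100 genes lie together on chromosome 1q21 beside the genes of epidermal differentiation, and in breast epithelium several of them are known to vary with basal identity, inflammation and migration.

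The 8 libraries held between 20604377 and 37550457 reads counted on genes, and the 2 replicates of a group correlated across genes with r between 0.996 and 0.997. *RN7SL1* and *RN7SL2*, which encode the RNA of the signal recognition particle, took 8.22% to 15.7% of the reads. *MALINC1* itself was at 1.0 and 1.51 CPM in MCF10A with pLOC-empty and at 13.2 and 11.7 CPM with pLOC-*MALINC1*, and in DCIS.COM at 1.35 and 1.15 CPM against 24.5 and 19.2 CPM. The libraries with pLOC-*MALINC1* were thus the higher ones in both lines. All 10 breast epithelial marker genes were measured, among them *KRT5*, *KRT8*, *EPCAM* and *CDH1*. Of 10 myeloid markers, chosen since neutrophils and monocytes also express *S100A8* and *S100A9*, *CD14* and *CD68* were measured and the other 8, *PTPRC*, *ITGAM* and *MPO* among them, were not analysed here. In these bulk libraries fewer expressing cells and less RNA per cell cannot be told apart. A gene is called higher or lower below when its adjusted p was under 0.01 and its change exceeded 2-fold, and a log2 fold change is that of the deposited log2 CPM, which hold a small prior count and so understate the change of weakly expressed genes.

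The promoters of the members are shown first, because the 5 members that passed the thresholds in a comparison of the vectors stand beside *S100A6*, which did not, and because AP-1, whose element is among the motifs searched, is a transcription factor the study was concerned with. Each line gives the 100 bases before a RefSeq transcription start (GRCh38.p14), 5′ to 3′ on the gene's own strand. Capitals mark TATAA or TATAAA (the core of a TATA box), TGANTCA (a loose form of the AP-1 element, with any base at N) and GGGCGG (the core of a GC box).
S100A8: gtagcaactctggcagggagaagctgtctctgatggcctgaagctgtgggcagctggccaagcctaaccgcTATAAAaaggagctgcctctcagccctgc
S100A9: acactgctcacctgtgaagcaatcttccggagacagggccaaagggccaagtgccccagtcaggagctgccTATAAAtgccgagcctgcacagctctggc
S100A2: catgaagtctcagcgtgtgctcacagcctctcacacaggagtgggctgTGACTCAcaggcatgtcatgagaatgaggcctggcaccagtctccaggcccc
S100A4: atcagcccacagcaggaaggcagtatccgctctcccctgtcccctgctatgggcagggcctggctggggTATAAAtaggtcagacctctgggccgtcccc
S100P: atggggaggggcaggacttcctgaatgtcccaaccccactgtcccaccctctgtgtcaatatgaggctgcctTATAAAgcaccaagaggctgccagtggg
S100A6: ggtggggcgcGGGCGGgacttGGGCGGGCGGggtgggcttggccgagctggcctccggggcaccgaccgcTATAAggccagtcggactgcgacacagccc
The stretches lie at chr1:153391074-153391173 on the minus strand for *S100A8*, chr1:153357754-153357853 on the plus strand for *S100A9*, chr1:153565845-153565944 (minus) for *S100A2*, chr1:153545807-153545906 (minus) for *S100A4*, chr4:6693778-6693877 (plus) for *S100P* and chr1:153535992-153536091 (minus) for *S100A6*. RefSeq gives *S100A8* 3 starts and *S100A2* 2 starts, and the windows with a motif nearest to the start are shown. TATAAA began 29 bases before the start in *S100A8* and *S100A9*, 31 in *S100A4* and 28 in *S100P*, whereas *S100A6* and *S100A14* had TATAA without the last A at 30 and 29 bases.

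In windows of 250 bases before to 50 bases after the start, searched on both strands, TATAAA was found in 11.5% of 35116 RefSeq promoters and TATAA, which includes it, in 20.4%. At 20 to 40 bases before the start and on the gene's strand the shares were 2.30% and 3.91%. All 9 measured members had a window. TATAAA lay in that place in 4 of the 5 members that passed the thresholds and in 0 of the 4 that did not, but with TATAA the counts were 4 of 5 and 2 of 4. A member was counted if any of its windows had the motif, whereas the shares are per window. The split also rests on *S100P*, whose log2 fold change of -1.01 in DCIS.COM sat at the 2-fold threshold. *S100A6*, at -0.95 there, was not called. Of the other S100 genes, 4 that were not called had a window, and *S100A13* among them had TATAAA in that place. The AP-1 element in the loose form searched was found in 1 member, *S100A2*, 52 bases before the start in 1 of its 2 windows, against 7.71% of all promoters. Among the other measured S100 genes *S100A3*, which was not called, had it 225 bases before the start. The GC box core, found in 45.0% of all promoters, was present in the members *S100A6*, *S100A9*, *S100A10* and *S100A11*. These matches are letters in a window and not mapped sites, and the motifs were chosen after the values were known.

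In MCF10A the vector comparison was marked by *S100A8*, *S100A9* and *S100A2*, all of them higher with *MALINC1*. Of the 9 measured members 3 were higher, against a background of 2.99% of all genes, and 0 were lower, against 2.51%. At an adjusted p under 0.01 and any fold, 5 members were higher (*S100A11* and *S100A14* as well) where 21.5% of all genes were, and 2 were lower (*S100A4* and *S100A6*) where 18.1% were. The median log2 fold change of the members was 0.35, and that of all genes 0.00.

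*S100A8* and *S100A9* are the subunits of calprotectin, a heterodimer that sequesters zinc and manganese and signals through *TLR4* and RAGE when it is released. *S100A8* (chromosome 1, 153362508 to 153363549, minus strand in GRCh37) was at 0.552 and 0.753 CPM in MCF10A with pLOC-empty, from 16 and 17 reads, and at 4.01 and 3.82 CPM with pLOC-*MALINC1*, from 144 and 101 reads. Both libraries with *MALINC1* were above both without it. The log2 fold change was 2.48 (standard error 0.28, adjusted p = 1.27e-05), a 5.56-fold rise, and *S100A8* stayed a rare transcript. *S100A9* (chromosome 1, 153330330 to 153333499, plus strand) was at 6.59 and 7.35 CPM without and at 25.6 and 26.3 CPM with *MALINC1*. It rose 3.70-fold (log2 fold change 1.89, standard error 0.074, adjusted p = 1.33e-09), and the groups did not overlap. *CD14* and *CD68* together were at 14.04 and 14.3 CPM in the MCF10A libraries without and at 12.9 and 13.7 CPM in those with *MALINC1*. The 2 went opposite ways, from a mean of 2.81 to 4.15 CPM for *CD14* and from 11.3 to 9.17 CPM for *CD68*, and neither passed the thresholds.

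In DCIS.COM the same 2 genes had another pattern. *S100A8* was at 0.233 and 0.430 CPM without and at 0.262 and 0.236 CPM with *MALINC1*, with 5 to 9 reads in each library, and the groups overlapped (log2 fold change -0.29, standard error 0.28, adjusted p = 0.431). A difference within that error was not detectable at this depth. *S100A9* was at 41.5 and 37.9 CPM without and at 47.0 and 51.6 CPM with *MALINC1* (log2 fold change 0.31, standard error 0.074, adjusted p = 0.00426), a difference under the 2-fold threshold. The DCIS.COM libraries thus held more *S100A9* than any MCF10A library and less *S100A8*. *CD14* and *CD68* together were at 4.11 and 4.20 CPM without and at 7.89 and 8.13 CPM with *MALINC1* in DCIS.COM, and their part in the *S100A9* value was not tested.

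Set per length, as CPM per kb of the annotated transcript, the ratio of *S100A8* to *S100A9* was 0.118 and 0.144 in MCF10A with pLOC-empty and 0.220 and 0.204 with pLOC-*MALINC1*. It was 0.00790 and 0.0159 in DCIS.COM with pLOC-empty and 0.00784 and 0.00644 with pLOC-*MALINC1*. The transcript of the partner was therefore in excess in every library, and by far more in DCIS.COM.

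*S100A2* is a mostly nuclear S100 protein of basal epithelial cells that binds p53 and its relatives. *S100A2* (chromosome 1, 153533584 to 153540366, minus strand) was at 1089.8 and 1059 CPM in MCF10A with pLOC-empty and at 2947 and 3079 CPM with pLOC-*MALINC1*. That is a rise of 2.80-fold without overlap (log2 fold change 1.49, standard error 0.044, adjusted p = 1.22e-10). The DCIS.COM libraries had it at 5114 and 5095 CPM without and at 5182 and 5439.9 CPM with *MALINC1* (log2 fold change 0.06, standard error 0.044, adjusted p = 0.315), so that all 4 libraries lay above those of MCF10A. *TP63*, which encodes p63, was at 5.24 and 4.60 CPM in MCF10A with pLOC-empty, at 41.7 and 40.1 CPM with pLOC-*MALINC1* and between 49.1 and 57.4 CPM in DCIS.COM. Of the 10 breast epithelial markers, *TP63* and *KRT14* were higher and *KRT19* was lower with *MALINC1* in MCF10A, where 2.99% of all genes were higher and 2.51% lower, and their summed level was 20622 and 20872 CPM without and 28063 and 28805 CPM with it. In DCIS.COM 0 of the 10 passed the thresholds, which 1.44% (higher) and 3.08% (lower) of all genes did, and the sum ranged from 7794 to 8519 CPM. Between the lines with pLOC-empty, 4 of the 10 markers were higher and 4 lower in DCIS.COM, where 15.6% and 13% of all genes were. *TP63* was among the higher ones. The keratin genes *KRT5*, *KRT14* and *KRT17* were lower, at means of 1069, 33.0 and 970 CPM against 6149, 1452 and 9985 CPM in MCF10A. The part of the 10 markers in the *S100A2* result was not tested.

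**Figure D1:**
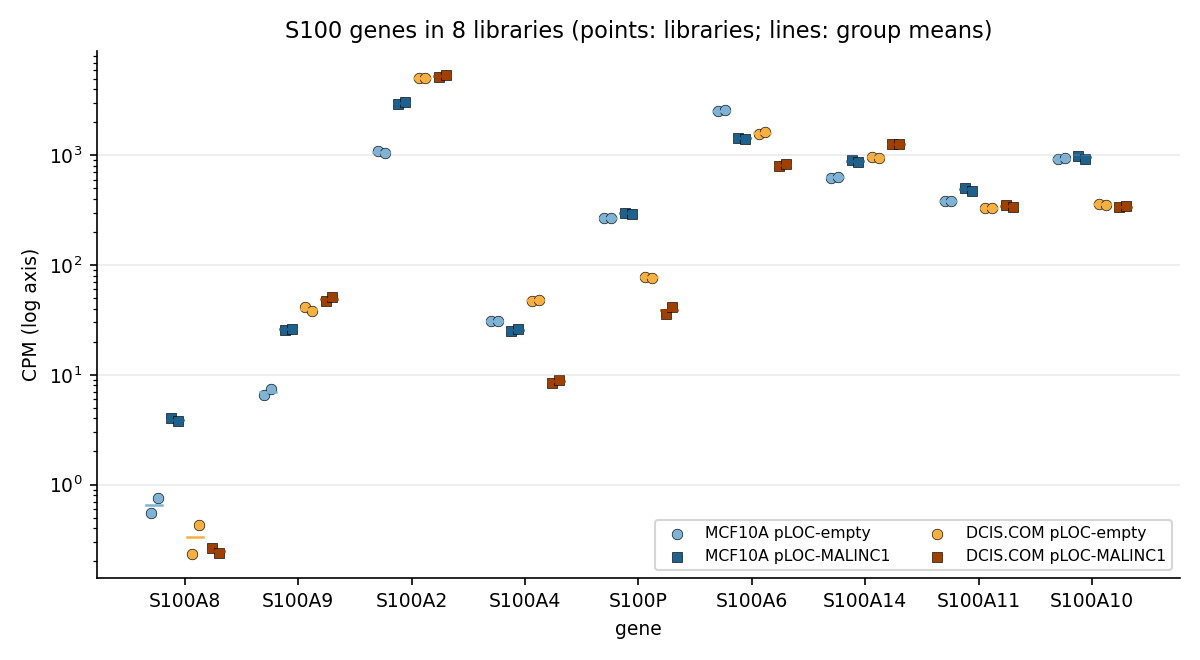
CPM (log axis) of the 9 measured S100 genes in each of the 8 libraries, with points for libraries and short lines for group means. Past the thresholds, *S100A8*, *S100A9* and *S100A2* stood higher with pLOC-*MALINC1* than with pLOC-empty in MCF10A, while *S100A4* and *S100P* stood lower with it in DCIS.COM. Short of 2-fold, *S100A6* stood lower and *S100A14* higher with pLOC-*MALINC1* in both lines.

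In DCIS.COM the members that passed the thresholds fell. *S100A4* and *S100P* were lower, 2 of 9 members where 3.08% of all genes were, and 0 members were higher where 1.44% of all genes were. At any fold 3 members were lower (*S100A6* as well), against 16.7% of all genes, and 2 were higher (*S100A9* and *S100A14*), against 16.4%. The median log2 fold change was -0.07 over the members and 0.0089 over all genes.

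*S100A4*, also called metastasin, binds non-muscle myosin heavy chain IIA (*MYH9*) and is known for its link with cell motility. *S100A4* (chromosome 1, 153516089 to 153522612, minus strand) was at 47.4 and 48.2 CPM in DCIS.COM with pLOC-empty and at 8.51 and 9.02 CPM with pLOC-*MALINC1*. It fell to 18.4% of its level, the largest change of a member in this line (log2 fold change -2.44, standard error 0.058, adjusted p = 1.64e-11), and the groups lay far apart. In MCF10A it was at 30.6 and 30.9 CPM without and at 25.2 and 26.1 CPM with *MALINC1* (log2 fold change -0.26, standard error 0.058, adjusted p = 0.0022), under the fold threshold although the groups did not overlap. The *S100A3* gene lies within the span of *S100A4* on the same strand, and the annotated canonical transcripts share no exon. The log2 fold changes of *MYH9* were 0.26 in DCIS.COM and 0.07 in MCF10A, neither past the fold threshold.

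*S100P* is a placental S100 protein and RAGE ligand that also binds ezrin. *S100P* (chromosome 4, 6695605 to 6698897, plus strand) is the only member outside 1q21. It was at 78.3 and 76.6 CPM in DCIS.COM with pLOC-empty and at 35.9 and 41.4 CPM with pLOC-*MALINC1*, a fall to 49.8% (log2 fold change -1.01, standard error 0.053, adjusted p = 2.06e-08). The groups did not overlap, but the change sat at the 2-fold threshold. It was -0.99 without DCIS.COM pLOC-empty replicate 1 and -0.90 without DCIS.COM pLOC-*MALINC1* replicate 1, and so was not called in either case. In MCF10A *S100P* was at 268 and 269 CPM without and at 301 and 291 CPM with *MALINC1* (log2 fold change 0.14, standard error 0.053, adjusted p = 0.0405).

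*S100A6*, known as calcyclin, binds CacyBP and annexin A11, and was the most abundant S100 transcript per length in MCF10A with pLOC-empty. *S100A6* (chromosome 1, 153507075 to 153508720, minus strand) was at 2521 and 2603 CPM in MCF10A with pLOC-empty, at 1438 and 1420.1 CPM with *MALINC1*, and in DCIS.COM at 1553 and 1624 CPM against 805 and 841 CPM. The log2 fold changes were -0.84 in MCF10A (standard error 0.039, adjusted p = 5.84e-09) and -0.95 in DCIS.COM (standard error 0.039, adjusted p = 2.22e-09). Levels with *MALINC1* were 55.8% and 51.8% of those without, just short of the fold threshold in both lines, and no library with *MALINC1* reached those without it.

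*S100A14*, *S100A11* and *S100A10* had smaller differences between the vectors. *S100A14*, a protein of epithelial cells that has been linked to their motility, was at 627 and 636 CPM against 905 and 870.4 CPM in MCF10A and at 975 and 956 CPM against 1266 and 1270.5 CPM in DCIS.COM. Its log2 fold changes were 0.49 and 0.39 (standard error 0.033 each, adjusted p = 1.61e-07 and 1.34e-06), with the libraries carrying *MALINC1* above the others in both lines. *S100A11*, the partner of annexin A1, was at 386 and 383 CPM against 508 and 474 CPM in MCF10A (log2 fold change 0.35, adjusted p = 7.18e-06) and between 328 and 351 CPM in DCIS.COM (log2 fold change 0.06, adjusted p = 0.208). *S100A10*, or p11, the light chain of the annexin A2 tetramer, which does not bind calcium, was between 929 and 989 CPM in MCF10A and between 337 and 358 CPM in DCIS.COM. Its log2 fold changes of 0.04 and -0.07 (standard error 0.034, adjusted p = 0.331 and 0.119) were the smallest in MCF10A and among the smallest in DCIS.COM.

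**Figure D2:**
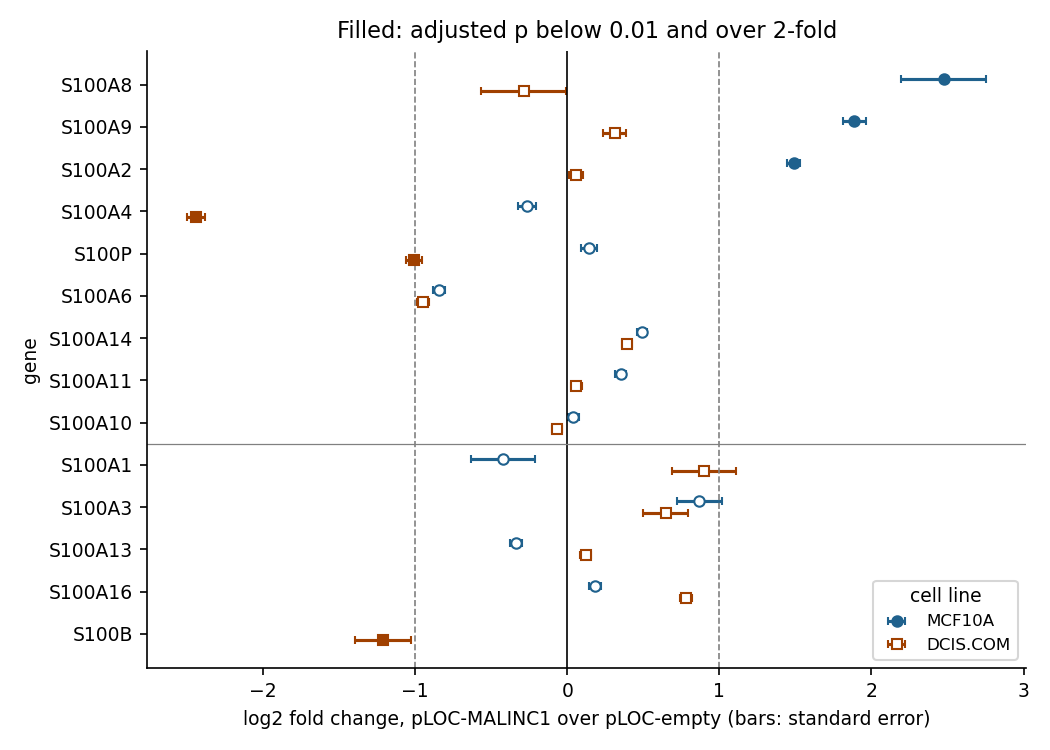
Log2 fold change with pLOC-*MALINC1* over pLOC-empty (x axis, bars for the standard error) of 9 members, above the line, and 5 other S100 genes, below it, in MCF10A (circles) and DCIS.COM (squares). Filled symbols passed the thresholds, which was the case for *S100A8*, *S100A9* and *S100A2* in MCF10A and for *S100A4*, *S100P* and *S100B* in DCIS.COM, and no value is drawn for *S100B* in MCF10A, where it had 0 reads.

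Whether the effect of the vector differed between the lines was tested by the difference itself. It was lower in DCIS.COM than in MCF10A for 5 of 9 members, where 5.22% of all genes were, and higher for 0, where 3.98% were. The 5 were *S100A8* (log2 difference -2.76, standard error 0.39, adjusted p = 0.000102), *S100A4* (-2.17, standard error 0.082, adjusted p = 9.01e-10), *S100A9* (-1.58, standard error 0.104, adjusted p = 1.38e-07), *S100A2* (-1.43, standard error 0.062, adjusted p = 2.71e-09) and *S100P* (-1.15, standard error 0.076, adjusted p = 1.32e-07). For *S100A8*, *S100A9* and *S100A2* the difference came with a rise in MCF10A, and for *S100A4* and *S100P* with a fall in DCIS.COM. The remaining members had log2 differences of -0.29 (*S100A11*, adjusted p = 0.000608), -0.11 (*S100A10*, adjusted p = 0.0764), -0.11 (*S100A6*, adjusted p = 0.127) and -0.10 (*S100A14*, adjusted p = 0.103). The estimate was thus below 0 for 9 of 9 members, where 6844 of all 13842 genes had one above 0. The median was -1.15 over the members and -0.0071 over all genes. With quantile normalization, however, the values of *S100A6* and *S100A14* turned to 0.11 and 0.10.

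**Figure D3:**
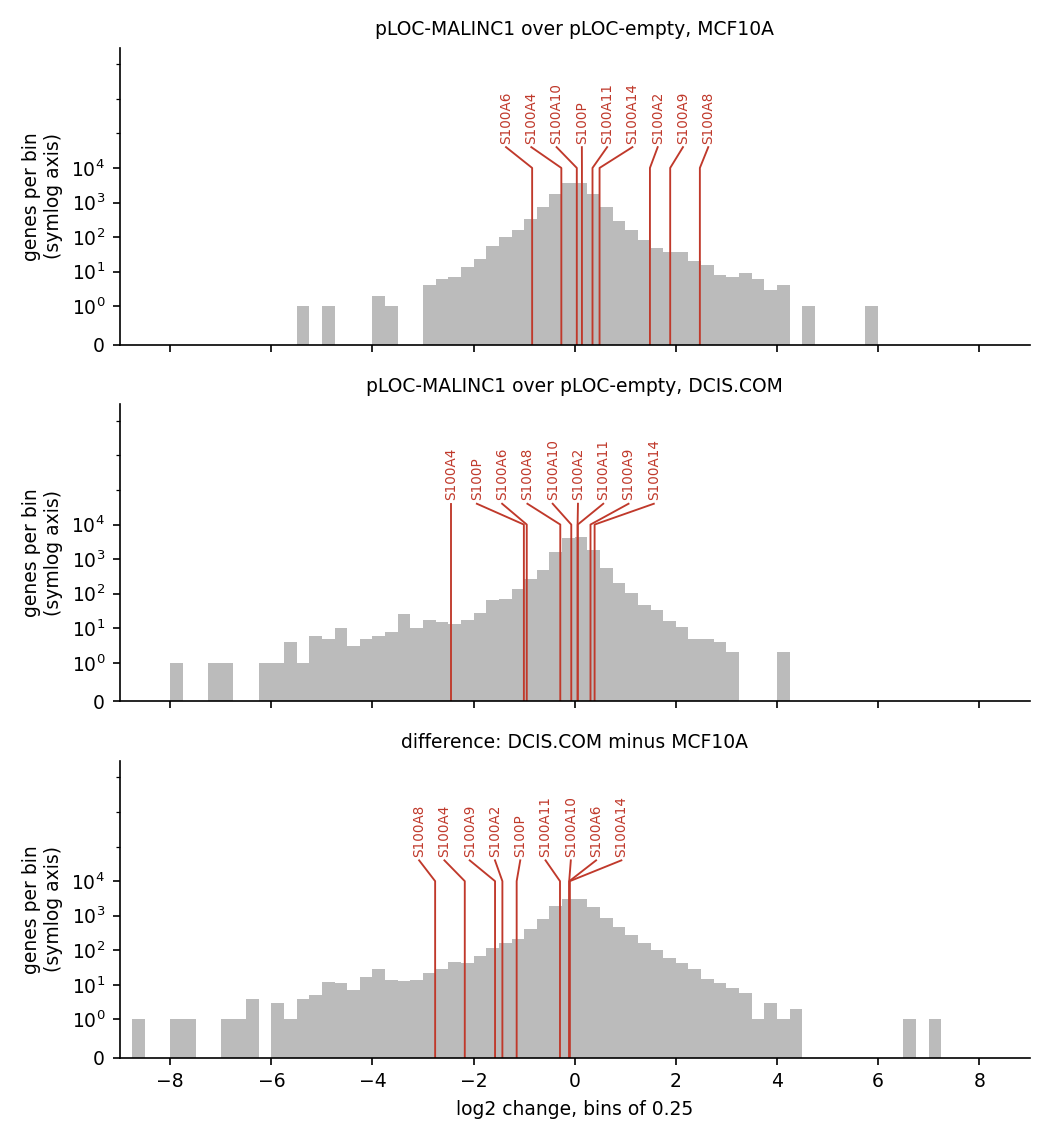
Number of genes (symlog axis) by log2 change in bins of 0.25 for the vector comparison in MCF10A, in DCIS.COM and for the difference between the lines, with the 9 members as red lines. In the lowest panel the members lie at or left of 0, from -2.76 for *S100A8* to -0.10 for *S100A14*.

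Between the lines with pLOC-empty, DCIS.COM held more *S100A2* and *S100A9* and less *S100A10* and *S100P*. That is 2 of 9 members higher, where 15.6% of all genes were, and 2 lower, where 13% were. *S100A9* was 5.65-fold higher (log2 fold change 2.50, standard error 0.074, adjusted p = 7.04e-12) and *S100A2* 4.75-fold higher (2.25, standard error 0.044, adjusted p = 1.71e-13). *S100P* was 3.46-fold lower (-1.79, standard error 0.053, adjusted p = 7.57e-12) and *S100A10* 2.62-fold lower (-1.39, standard error 0.034, adjusted p = 1.17e-12). For *S100A8* the log2 fold change was -0.88 (standard error 0.28, adjusted p = 0.0113), which passed both thresholds only without DCIS.COM pLOC-empty replicate 2 (-1.23, adjusted p = 0.00225) or with quantile normalization (-1.85, adjusted p = 7.79e-05). *S100A4*, *S100A14*, *S100A6* and *S100A11* stayed under 2-fold, at 0.63, 0.61, -0.69 and -0.22.

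With pLOC-*MALINC1* in both lines, 4 members were lower in DCIS.COM, where 12.2% of all genes were, and 0 were higher, where 14.4% were. *S100A8* was 12.4-fold lower (log2 fold change -3.64, standard error 0.28, adjusted p = 7.82e-08), *S100P* 7.68-fold (-2.94, standard error 0.053, adjusted p = 1.29e-13), *S100A4* 2.91-fold (-1.54, standard error 0.058, adjusted p = 8.08e-11) and *S100A10* 2.83-fold (-1.50, standard error 0.034, adjusted p = 7.09e-13). *S100A9* and *S100A2* were still at 0.92 and 0.82 above MCF10A on the log2 scale (adjusted p = 1.24e-07 and 2.35e-09), under the fold threshold here and past it with quantile normalization, at 1.01 and 1.19. In both line comparisons the total without *RN7SL1* and *RN7SL2* shifts the median of all genes, to 0.14 and 0.18 on the log2 scale.

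Per length, *S100A6* was the most abundant S100 transcript in both MCF10A groups and *S100A2* in both DCIS.COM groups. *S100A6* made up 52.6% and 53.5% of the summed CPM per kb of the 14 measured S100 genes in MCF10A with pLOC-empty, 29.7% and 29.5% with pLOC-*MALINC1*, and in DCIS.COM 29.6% and 30.8% against 17.0% and 17.1%. *S100A2* made up 10.1% and 9.66%, then 27.0% and 28.5%, and in DCIS.COM 43.3% and 42.9% against 48.5% and 49.2%. The sum itself lay between 10936 and 12149 CPM per kb in all 8 libraries, so that per length the makeup of the S100 pool varied far more than its size. Without the division by length, the 9 members summed to 5859 and 5931 CPM in MCF10A with pLOC-empty and to 7142 and 7129 CPM with pLOC-*MALINC1*. In DCIS.COM that sum lay between 8033 and 8522 CPM. *S100A10* was second in MCF10A with pLOC-empty, above *S100A2*, and came after *S100A2* with pLOC-*MALINC1*, at 1394 ± 12.96 (SD, n = 2) and 1435 ± 54.5 CPM per kb, whereas in DCIS.COM *S100A14* followed *S100A6*, at 916 ± 12.4 and 1203 ± 3.34 CPM per kb. Among the 9 members the lowest in every group was *S100A8*, at 0.611 ± 0.0445 to 9.59 ± 0.341 CPM per kb. *S100A9*, at 12.2 ± 0.943 to 86.0 ± 5.67, and then *S100A4*, at 17.1 ± 0.703 to 93.2 ± 1.08, came next except in DCIS.COM pLOC-*MALINC1*. There *S100A4* and *S100P* (82.0 ± 8.21) lay below *S100A9*.

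Some members shared the order of the 4 group means. *S100A9*, *S100A2* and *S100A14* followed the order MCF10A pLOC-empty, MCF10A pLOC-*MALINC1*, DCIS.COM pLOC-empty and DCIS.COM pLOC-*MALINC1* from lowest to highest, and the 2 DCIS.COM groups of *S100A2* were not separated by the test. *S100P*, *S100A10* and *S100A8* had both DCIS.COM means below those of MCF10A, with pLOC-*MALINC1* the lower mean in DCIS.COM and the higher in MCF10A, although the vector groups of *S100A10* were not separated by the test in either line. *S100P* ran from 38.6 ± 3.87 CPM (SD, n = 2) in DCIS.COM pLOC-*MALINC1* over 77.4 ± 1.23 CPM in DCIS.COM pLOC-empty to 268 ± 0.571 and 296 ± 6.96 CPM in MCF10A, where the last 2 differed by less than 2-fold. *S100A4* had DCIS.COM at both ends, with 8.76 ± 0.361 CPM in the pLOC-*MALINC1* and 47.8 ± 0.554 CPM in the pLOC-empty group. *S100A8* stood out in MCF10A pLOC-*MALINC1* at 3.91 ± 0.139 CPM, and the 2 DCIS.COM groups overlapped.

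Partner transcripts were read beside the members. Of 30 listed partners 26 were measured. With *MALINC1* 2 were higher and 1 was lower in MCF10A, where 2.99% and 2.51% of all genes were, and 0 were higher and 1 was lower in DCIS.COM, where 1.44% and 3.08% were, so that these counts lie near the background. *TLR4*, the receptor of calprotectin on innate immune cells, was at 5.48 and 5.402 CPM without and at 14.6 and 13.4 CPM with *MALINC1* in MCF10A (log2 fold change 1.35, standard error 0.078, adjusted p = 3.97e-08) and at 29.4 and 30.7 CPM against 23.7 and 25.8 CPM in DCIS.COM (-0.28, adjusted p = 0.0112). Its effect differed between the lines by -1.63 (adjusted p = 1.67e-07). Of the 4 measured receptors, *TLR4* was higher in MCF10A with *MALINC1*, as were *S100A8* and *S100A9*, and 1, *AGER*, was lower. *AGER*, which encodes RAGE, was a rare transcript that fell in MCF10A from 1.22 ± 0.159 to 0.525 ± 0.112 CPM (SD, n = 2, log2 fold change -1.12, standard error 0.23, adjusted p = 0.00137). *TRPV6*, a calcium channel that *S100A10* with annexin A2 carries to the membrane, had 1 and 2 reads in MCF10A with pLOC-empty and 9 and 7 with *MALINC1*. *ARRB1*, a beta-arrestin, fell in DCIS.COM from 6.89 ± 0.247 to 2.85 ± 0.362 CPM (log2 fold change -1.26, standard error 0.199, adjusted p = 0.00025).

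None of the 5 measured annexins passed the thresholds in a comparison of the vectors by limma, with log2 fold changes from -0.71 to 0.70 in MCF10A and from -0.15 to 0.25 in DCIS.COM. *ANXA2* had log2 fold changes of 0.03 and 0.25 and *ANXA11* of 0.05 and 0.04. The ratio of *S100A10* to *ANXA2* per length lay between 0.365 and 0.377 in the 4 MCF10A libraries, at 0.181 and 0.178 in DCIS.COM with pLOC-empty and at 0.146 and 0.142 with pLOC-*MALINC1*. *ANXA1* stood 0.70 higher on the log2 scale in MCF10A (standard error 0.039, adjusted p = 2.83e-08), above that of *S100A11*, and the ratio of *S100A11* to *ANXA1* was 0.906 and 0.876 without and 0.701 and 0.696 with *MALINC1* there. In DCIS.COM it was 0.988 and 0.947 without and 0.899 and 0.845 with *MALINC1*.

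**Figure D4:**
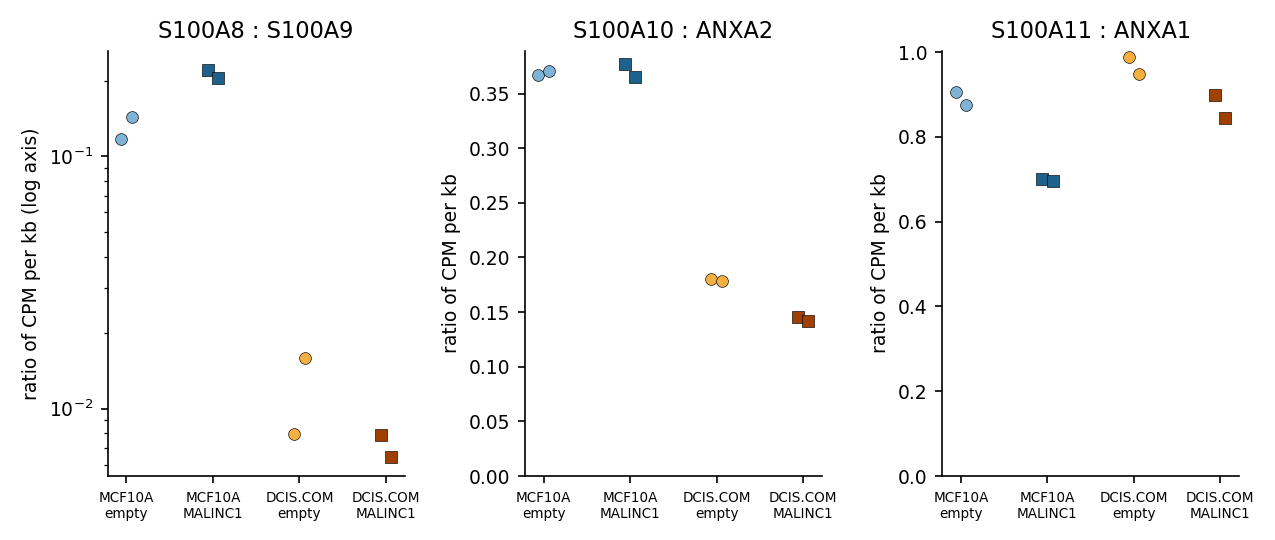
Ratio of CPM per kb in each library for *S100A8* over *S100A9* (log axis), *S100A10* over *ANXA2* and *S100A11* over *ANXA1*, by group. The *S100A8* to *S100A9* ratio was 0.118 or more in MCF10A and 0.0159 or less in DCIS.COM, and the *S100A10* to *ANXA2* ratio split the lines in the same way.

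Beyond the members, 5 of 11 other S100 genes were measured. *S100B*, a glial and melanocyte S100 protein and RAGE ligand, had 0 reads in all 4 MCF10A libraries and was at 46.9 and 50.2 CPM in DCIS.COM with pLOC-empty and at 19.5 and 22.4 CPM with pLOC-*MALINC1*. It fell in DCIS.COM (log2 fold change -1.21, standard error 0.184, adjusted p = 0.00019), and against a floor of 3 reads per library it was at least 410.7-fold higher than in MCF10A with pLOC-empty and at least 213-fold higher with pLOC-*MALINC1*. *S100A1*, a cardiac and neuronal S100 protein, had 8 to 15 reads in each MCF10A library and was at 61.0 and 62.4 CPM without and at 117 and 113 CPM with *MALINC1* in DCIS.COM. Its exons overlap *S100A13* on the opposite strand, and since the strand setting of the counting is not given in the sources used here its values are uncertain. *S100A16* was at 553 and 519 CPM against 899.8 and 941 CPM in DCIS.COM (log2 fold change 0.78, adjusted p = 1.09e-08) and differed by 0.18 on that scale in MCF10A. *S100A3* (0.87 in MCF10A and 0.65 in DCIS.COM) and *S100A13* (-0.34 and 0.12) also stayed under 2-fold.

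Along 1q21 the S100 genes did not move as a block. Between *S100A10* and *S100A16* the table held 10 genes other than the 9 single S100 genes there, those of filaggrin and hornerin, which are fused-type S100 proteins, of involucrin and of small proline-rich proteins, which together build the cornified envelope. With *MALINC1* 3 of these 10 were higher in MCF10A (*SPRR1A*, *SPRR1B* and *SPRR2D*) and 7 in DCIS.COM (*FLG*, *SPRR1A*, *SPRR1B*, *SPRR2A*, *SPRR2B*, *SPRR2E* and *SPRR3*), and 0 were lower in either line, where 2.99% and 1.44% of all genes were higher. Their median log2 fold changes were 0.89 and 1.18, against 0.35 and -0.07 for the members. *S100A4*, which fell in DCIS.COM, lies between *S100A6* and *S100A2*, whose log2 fold changes there were -0.95 and 0.06. *FLG*, a fused-type S100 gene that joins an S100 domain to a large structural protein, rose in DCIS.COM from 1.11 ± 0.385 to 3.98 ± 0.767 CPM (SD, n = 2, log2 fold change 1.80, standard error 0.28, adjusted p = 0.000228).

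**Figure D5:**
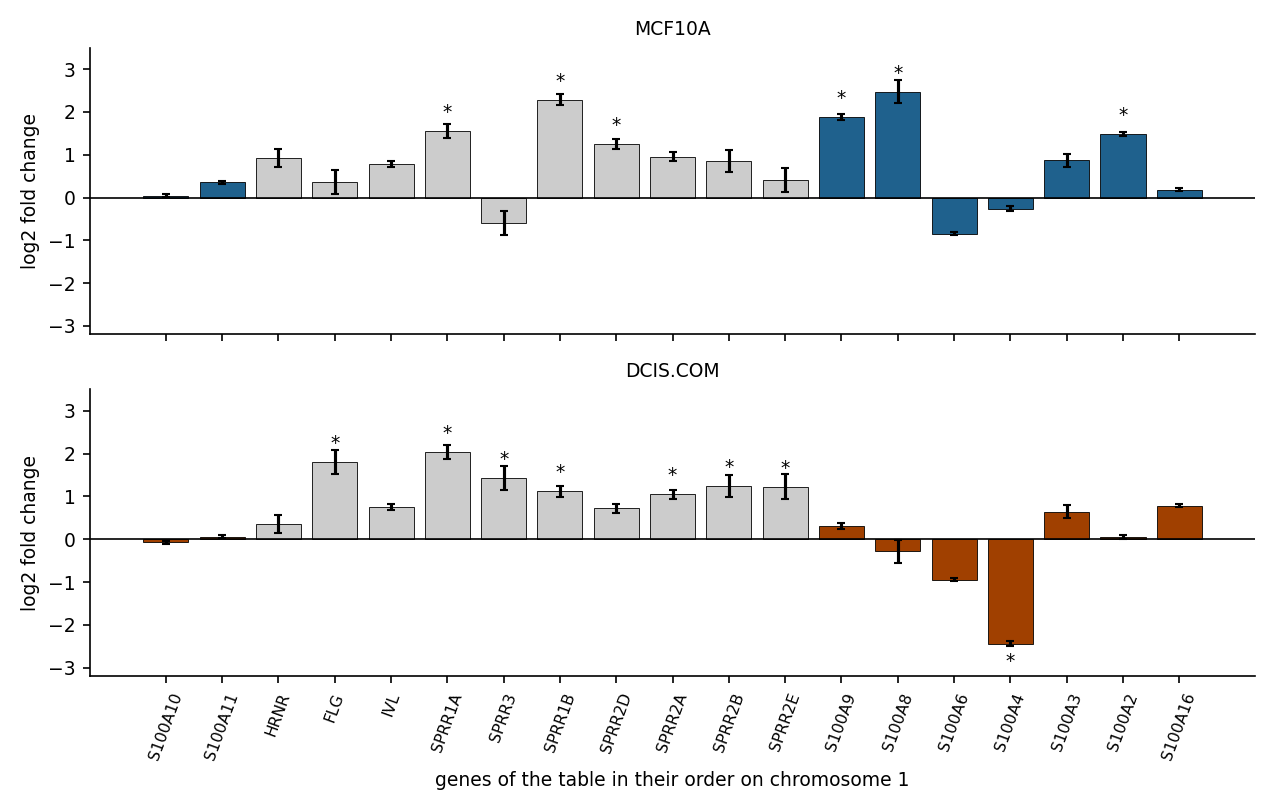
Log2 fold change with pLOC-*MALINC1* over pLOC-empty (bars, with the standard error) of the measured genes from *S100A10* to *S100A16* in their order on chromosome 1, in MCF10A and DCIS.COM, with single S100 genes in color and others in grey. Asterisks mark genes past the thresholds, which in DCIS.COM were 7 of the 10 grey genes and *S100A4*.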

How the data were processed

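Gene expression was measured by 76 nt paired-end RNA-seq of total RNA. The authors aligned the reads to hg19, counted them with featureCounts and deposited normalized log2 CPM made with edgeR for 13842 genes, with versions, strand setting and filter not given in the sources used here. Values rise in steps of 1 read above a prior of 0.0713 CPM, which gave whole reads (within 0.01) for 100% of values up to 2000 reads. The 346 rows without a symbol (2.50%) were kept in the fit.

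The 8 libraries entered a single fit in limma 3.58.1 (R 4.3.3, a mean per group, eBayes with trend, Benjamini-Hochberg over all genes). All 13842 genes were at 0.5 CPM or more in 2 libraries. The fit was tested on simulated data. The standard error of a log2 fold change was 0.073 in the median. Lengths and GRCh37 positions are those of GENCODE canonical transcripts, and promoters those of RefSeq. The text names every measured S100 gene, fused-type S100 genes, partners and 1q21 neighbours past the thresholds, the annexins of S100 complexes, and the 3 genes nearest in pattern to *S100A8*, *S100A9* and *S100P*, of which 1 is not reported here. *MYH9*, *KRT5*, *KRT8*, *KRT17*, *EPCAM*, *CDH1* and *TP63* were named after their values were seen. The members and lists were chosen with earlier results of these data known. Replicate numbers were used only to number libraries, since the labels do not say that they pair them. The correlation of replicate differences between groups ran from -0.156 to 0.112, which cannot exclude a pairing with small shared differences. Alternatives changed the pseudocount, filter, scaling, model, thresholds and libraries. Figures were drawn with matplotlib 3.10.9 in Python 3.11.15.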

Additional observations from a re-analysis of the deposited data

Results flagged for a closer look

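For 6 S100 genes the effect of *MALINC1* differed between the lines by the test of the difference (DCIS.COM minus MCF10A, log2 scale, limma with adjustment over all genes). The differences were -2.76 for *S100A8*, -2.17 for *S100A4*, -1.58 for *S100A9*, -1.43 for *S100A2*, 1.32 for *S100A1* and -1.15 for *S100P*. *S100B*, whose fitted difference was -1.21 (adjusted p = 0.00217), is left out, since it had 0 reads in every MCF10A library and no effect could be measured there. *S100A1* had 8 to 15 reads in each MCF10A library, and its difference lost the call in the fit without a trend (adjusted p = 0.0356). It also lost the call when some single libraries were left out. Values in those fits ran from 0.90 without MCF10A pLOC-*MALINC1* replicate 1 to 1.34 without DCIS.COM pLOC-*MALINC1* replicate 2. The call was kept without replicate 2 of either MCF10A group, and that range leaves those fits out.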

How the results depend on the processing

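The number of members higher in MCF10A moved from 3 to 5 when the fold threshold was dropped, and those lower from 0 to 2. Of all 13842 genes, 2979 were then higher and 2506 lower. At an adjusted p below 0.05 and 1.5-fold 1 member was lower there, where 1058 of all genes were. In DCIS.COM at any fold, 2 members instead of 0 were higher, where 2275 of all genes were. Of the 2 lower members 1, *S100A4*, was left with pseudocounts of 0.5 and 1 CPM, with each library's median as the scale and with the total without *RN7SL1* and *RN7SL2*, since *S100P* was then at -0.998, -0.989, -0.998 and -0.972. Between the lines with pLOC-empty, 4 instead of 2 were higher and 4 instead of 2 lower at any fold, where 5240 and 4990 of all 13842 genes were, and likewise at 1.5-fold (3521 and 3121). With pLOC-*MALINC1*, 0 became 2 with quantile normalization, 1 with the total without *RN7SL1* and *RN7SL2*, 3 at any fold (4948 of all genes) and 2 at 1.5-fold (3361). Leaving out each library gave 1 to 2 lower members in DCIS.COM, and the group left with 1 library was assumed to vary like the others. The sign turned under quantile normalization for *S100A2* (-0.052), *S100A8* (0.028) in DCIS.COM and *S100A10* (-0.062) in MCF10A, and for the differences of *S100A6* (0.11) and *S100A14* (0.10). It also turned for *S100A8* in DCIS.COM without DCIS.COM pLOC-empty replicate 2 (0.073, with -0.65 as the other end of the range over libraries left out) and for *S100A3* between the lines with pLOC-*MALINC1* without DCIS.COM pLOC-*MALINC1* replicate 1 (-0.0029, up to 0.39 with another left out). None of these 7 values had passed the thresholds. Over all genes a pseudocount of 1 CPM left 238 higher and 178 lower genes of 414 and 347 in MCF10A, and 100 and 268 of 200 and 427 in DCIS.COM. For single genes, 1252 of the other values kept direction and side, 13 lost a call and 7 gained one.

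With the replicate number as a block (replicate block), 3 members were higher and 0 lower in MCF10A, 0 higher and 2 lower in DCIS.COM and 5 lower in the difference, and no call of an S100 gene changed. The labels do not say whether the numbers pair the libraries. The causes of these shifts were not tested.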

Other observations

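The genes of the whole table whose pattern over the 8 libraries was nearest to that of a member were named by the root mean square difference of log2 CPM centred per gene. Nearest to *S100A8* were *C8orf88* (0.277), *IL1R2* (0.299), the interleukin-1 decoy receptor, and *PLLP* (0.355). *IL1R2* rose in MCF10A from 1.21 to 6.86 CPM as the mean of 2 libraries and was at 0.449 and 0.323 CPM in DCIS.COM. *S100A9* lay nearest to *FRMD4A* (0.110), *ANKRD22* (0.153) and *NOTCH3* (0.165), and *NOTCH3* was at 3.83 and 18.2 CPM in MCF10A and at 21.8 and 31.1 CPM in DCIS.COM. *S100P* lay nearest to *COL17A1* (0.101), which encodes the hemidesmosomal collagen XVII, and *RPS6KA2* (0.114). *COL17A1* was at 1317 and 1357 CPM in MCF10A and at 337 and 199 CPM in DCIS.COM, without and with *MALINC1*. With 4 groups of 2 libraries these are likenesses of 4 group means, given as a description.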
